A study of Bos taurus with 3 samples.

Results

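Axons and dendrites find their targets by reading cues that attract or repel the growing tip, and 4 families of cues with their receptors are the classical ones. Semaphorins signal through plexins, with neuropilins as coreceptors for the secreted class. Ephrins are membrane-bound ligands of the Eph receptor tyrosine kinases, slits bind the robo receptors, and netrins bind DCC and the UNC5 receptors. In the developing retina these systems steer ganglion cell axons to the optic disc and the brain and sort neurites into layers, and several members also act in blood vessels and in the mature nervous system. The levels of these genes were read in the retina of cattle, whose age the labels do not give. The genes were picked by a rule on their symbols that used no value, although earlier results of these data were known.

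The rule matched 48 of the 13574 gene symbols in the table. Of these, 47 encode guidance ligands or receptors. The remaining symbol, UNC50, matched through its letters only. It encodes a Golgi-associated protein that is not an UNC5 receptor, had 39.3, 34.7 and 26.3 FPKM in libraries 1, 2 and 3, and is left out of all counts that follow. A list of 72 names of these families was set against the table, and 25 of them were not analysed here. They include DCC, PLXNA1, PLXNB1, PLXND1, EFNB2, ROBO2, SLIT1, SEMA3A, SEMA3F and both class 5 semaphorins, so that sums over a family cover only the part in the table.

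The study sequenced poly(A) RNA of bovine retina, of mixed strain, in 3 libraries that form 1 group and share the treatment of the tissue. Retinas were taken between 7 and 10 in the morning and each library was made from pooled total RNA, per the labels. The labels do not tie the libraries to separate animals. SDs therefore describe the spread among these libraries. The XIST reads given below show that the libraries were not all made from the same animals, so this spread is not between technical repeats alone. How much of it is technical was not tested. There is no second group, no treatment and no second time point, and therefore no contrast between conditions could be tested. FPKM is a fragment count scaled to the length of the gene model and to the reads of the library, and levels of different genes are compared on that scale throughout.

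The values rested on 36656987, 39011741 and 49102476 reads, the denominators implied by the FPKM of libraries 1, 2 and 3. The tissue label was checked against marker genes. All 5 rod markers and all 5 cone markers reached 10 FPKM, with summed levels of 11700 to 15450 FPKM for rods, as did all 5 bipolar, all 5 amacrine, 5 of 6 ganglion cell and 4 of 5 Müller glia markers. Of the other cell types, 2 of 7 endothelial and pericyte markers, 0 of 5 pigment epithelium markers and 0 of 4 microglia markers reached 10 FPKM, as did 2 of 4 astrocyte and oligodendrocyte markers, with GFAP at a mean of 208 FPKM, and 2 of 4 lens markers. The lens markers summed to 32.1, 44.0 and 19.6 FPKM in libraries 1, 2 and 3. XIST, which is transcribed from the inactive X of females, had 3987, 3 and 3628 reads, so the animals behind library 2 differed from those behind the other libraries. In whole tissue, fewer cells of a type and less RNA per cell cannot be told apart, and no level below can be placed in a cell type.

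Guidance genes were detected widely and at modest levels, with NTNG2 standing far above the others. Of the 47 genes, 41 averaged 1 FPKM or more, or 87.2%, against 70.7% of all genes in the table. At 10 FPKM the order of the shares was the other way round, with 6 of 47 guidance genes, or 12.8%, against 38.4% of all genes. The median guidance gene had 3.57 FPKM ± 0.267 (SD of the 3 library medians). Over all listed genes the median was 5.67 FPKM. The middle of the list was narrow. Its quartiles were 1.76 and 5.58 FPKM, a span of 3.16-fold, whereas the quartiles of all genes were 0.529 and 19.1 FPKM, a span of 36.1-fold.

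The gene models of the family are long, with a median of 3207 bases against 1901 for all genes. Among the 2932 genes of at least 3000 bases, 79.5% averaged 1 FPKM or more and 34.0% reached 10 FPKM. Of the 29 guidance genes of that length, 26 and 2 did. These counts describe the list and were not tested against other genes. All 47 genes together held 0.119% ± 0.0164 (SD, n = 3) of the summed FPKM, and NTNG2 alone made up 41.9% of that part.

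**Figure D1:**
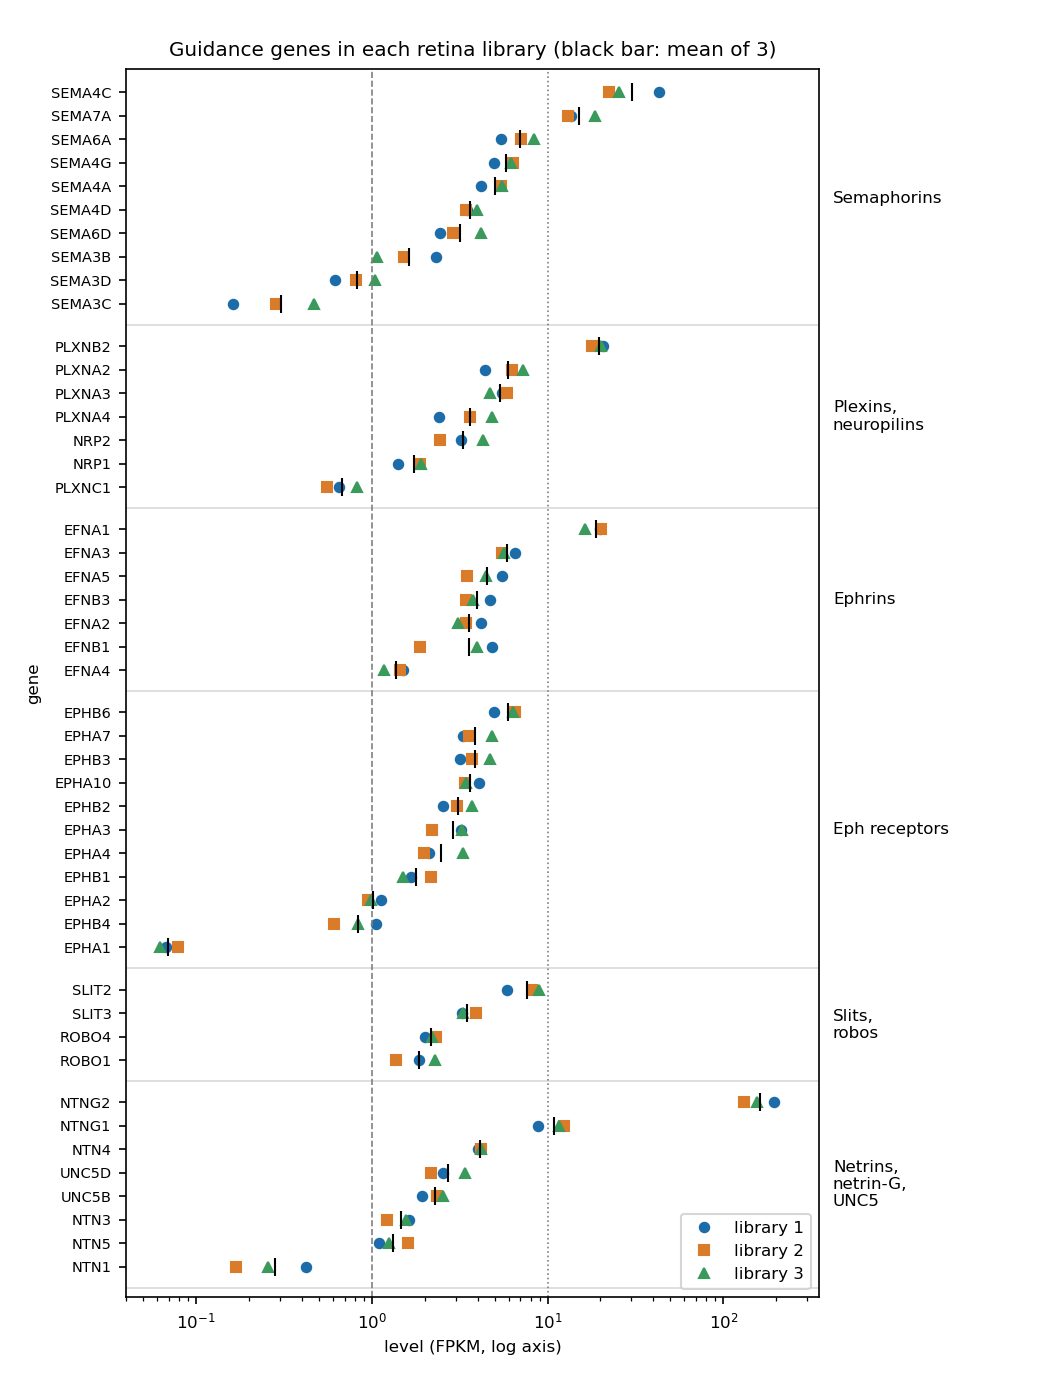
FPKM of the 47 guidance genes in libraries 1, 2 and 3, on a log axis, grouped by family and ordered by their mean within it. The dashed line marks 1 FPKM and the dotted line 10 FPKM. NTNG2 lies at 132 FPKM or more in each library, and most of the others lie between 1 and 10 FPKM.

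NTNG2 encodes netrin-G2, a membrane-anchored relative of the netrins that binds the leucine-rich repeat protein LRRC4 at synapses and does not bind DCC or UNC5. It had 195, 132 and 156 FPKM in libraries 1, 2 and 3. With a mean of 161 FPKM ± 32.0 (SD, n = 3) it ranked 272nd of all genes, and only 3.81% of the table reached 100 FPKM. Its lowest library lay far above the highest library of any other guidance gene, and its mean was 5.29 times that of SEMA4C, the next in order. At least 14263 reads lay on the gene in each library, so counting error is small beside the spread between libraries. NTNG1, which encodes the related netrin-G1, had 8.77, 12.5 and 11.6 FPKM. NTNG2 was above NTNG1 in each of the 3 libraries, by 3.87 ± 0.55 (SD, n = 3) on the log2 scale.

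The synaptic partner of netrin-G2 was present at a lower level. LRRC4 had 8.87, 10.7 and 10.6 FPKM, and NTNG2 stood above it by 3.99 ± 0.43 on the log2 scale, or 15.8-fold, in 3 of 3 libraries. LRRC4C, which encodes the partner of netrin-G1, was not analysed here.

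Semaphorins were represented by 10 genes, and the transmembrane and membrane-anchored classes held nearly all of their summed level. SEMA4C, a class 4 transmembrane semaphorin that binds plexin-B2, had 43.1, 22.5 and 25.6 FPKM, and library 1 was 1.91 times library 2 (95% exact interval for counting error 1.82 to 2.01). SEMA7A, the lipid-anchored semaphorin of vertebrates, had 13.5, 13.1 and 18.6 FPKM. These were the only semaphorins with a mean of at least 10 FPKM, and their values did not overlap over the 3 libraries. SEMA6A, a transmembrane semaphorin that in mice restricts neurites to sublayers of the inner plexiform layer, had 5.46, 7.05 and 8.37 FPKM.

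The other class 4 genes lay close together. SEMA4G, SEMA4A and SEMA4D had means of 5.82, 5.04 and 3.63 FPKM. SEMA4A, which is needed for photoreceptor survival in mice, had 4.19, 5.45 and 5.48 FPKM, and its values overlapped those of SEMA4G. SEMA6D had a mean of 3.18 FPKM.

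The secreted class 3 semaphorins, which act through neuropilins, were the lowest of the family. SEMA3B had 2.32, 1.52 and 1.07 FPKM and was the only one of the 3 in the table with a mean of at least 1 FPKM. SEMA3D had 0.614, 0.817 and 1.05 FPKM. SEMA3C rested on 15, 28 and 58 reads, or 0.162 to 0.467 FPKM. The summed level of class 3 was 2.77 FPKM ± 0.283 and that of class 4 was 44.9 FPKM ± 9.53 (SD, n = 3 for each), with SEMA4C holding 67.7% of the latter. The class 3 sum leaves out SEMA3A, SEMA3E, SEMA3F and SEMA3G, and the class 4 sum leaves out SEMA4B and SEMA4F.

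Among the semaphorin receptors in the table, PLXNB2, a plexin that receives class 4 semaphorins, was the highest. It had 20.7, 17.8 and 20.2 FPKM, differed by only 1.16-fold between libraries and held 55.6% of the summed plexin level. PLXNA2, a plexin-A that binds SEMA6A, had 4.42, 6.27 and 7.26 FPKM. PLXNA4, which binds SEMA6A too and acts with neuropilins, had 2.40, 3.63 and 4.84 FPKM, lowest in library 1 and highest in library 3. PLXNA3 had a mean of 5.34 FPKM, but its model has 1746 bases where those of the other plexins have 4951 to 6104, so its FPKM may describe part of the gene.

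The coreceptors and the plexin receptor of SEMA7A were lower. NRP2, the neuropilin preferred by SEMA3F, had 3.22, 2.45 and 4.29 FPKM, and NRP1, the neuropilin preferred by SEMA3A and shared with vascular endothelial growth factor, had 1.42, 1.89 and 1.92 FPKM. Their values did not overlap. PLXNC1, the plexin that binds SEMA7A, had 0.650, 0.559 and 0.827 FPKM, below 1 FPKM in each library although at least 108 reads lay on it.

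Known partners were set side by side within each library. SEMA7A was above PLXNC1 by 4.47 ± 0.09 on the log2 scale (SD, n = 3), or 22.2-fold. This was the widest gap of a ligand over a receptor among the 22 pairs looked at, which do not cover all receptors of a ligand. SEMA4C was above PLXNB2 in 3 of 3 libraries by 0.58 ± 0.42, while SEMA4D and SEMA4G were below the same receptor by 5.39-fold and 3.38-fold. PLXNB1 and PLXND1 were not analysed here, so no class 4 semaphorin could be set against them. SEMA6A was near PLXNA2, with a log2 difference of 0.23 ± 0.07, and above PLXNA4 by 0.98 ± 0.20. SEMA3C was 6.21-fold below NRP1 and 11.6-fold below NRP2, each in 3 of 3 libraries, and SEMA3D was 2.14-fold below NRP1.

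Ephrins were led by one gene, whereas no Eph receptor in the table reached 10 FPKM. EFNA1, a lipid-anchored ephrin that binds EphA receptors and is prominent in blood vessels, had 19.9, 20.1 and 16.3 FPKM and held 55.0% of the summed ephrin-A level. EFNA3 had 6.53, 5.48 and 5.64 FPKM. EFNA5, which forms part of the ephrin gradients of the visual system in mice and chicks, had 5.53, 3.49 and 4.49 FPKM. EFNA2 and EFNA4 had means of 3.57 and 1.37 FPKM. All 5 ephrin-A genes were in the table and all averaged 1 FPKM or more.

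The transmembrane ephrins EFNB3 and EFNB1 had means of 3.96 and 3.57 FPKM, and EFNB2 was not analysed here. EFNB1, which is X-linked in mammals, had 4.83, 1.89 and 3.99 FPKM, and its library 1 was 2.56 times library 2 (95% exact interval for counting error 2.15 to 3.06), the largest such ratio among guidance genes of at least 1 FPKM. Library 2 was also the one with 3 reads of XIST. PLXNA3, the other guidance gene of the table on the X in the ARS-UCD2.0 assembly, had 5.50, 5.84 and 4.69 FPKM. The X-linked adhesion gene L1CAM had 77.1, 88.2 and 89.0 FPKM. Whether the mix of animals has a part in the level of EFNB1 was not tested.

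Of the 11 Eph receptors listed, 9 reached 1 FPKM and none reached 10 FPKM. EPHA5, EPHA6 and EPHA8 were not analysed here. EPHB6, a receptor without kinase activity, was highest with 4.93, 6.52 and 6.37 FPKM. EPHA7 and EPHB3, both active kinases, had 3.31, 3.55 and 4.80 FPKM and 3.19, 3.74 and 4.70 FPKM, and the values of these neighbours overlapped. The other receptors with a mean of at least 1 FPKM were EPHA10, which also lacks kinase activity, and EPHB2, EPHA3, EPHA4, EPHB1 and EPHA2, with means from 3.64 down to 1.02 FPKM.

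At the low end, EPHB4, the receptor of venous endothelium, had 1.06, 0.607 and 0.831 FPKM. EPHA1, found mainly in epithelia, had 8, 10 and 10 reads, or 0.0627 to 0.0790 FPKM, the lowest level of the 47 genes. The models of EPHB6 and EPHA4 have 1820 and 1826 bases and those of the other Eph receptors 3027 to 4260, so both may cover part of the gene. The summed level of the 5 EphB receptors was 15.6 FPKM ± 1.94 and that of the 6 listed EphA receptors was 14.0 FPKM ± 1.83 (SD, n = 3 for each), a difference smaller than the spread between libraries.

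Partner pairs of this system showed one wide gap. EFNA1 was 18.3-fold above EPHA2, the receptor it is best known to bind, with a log2 difference of 4.19 ± 0.18 (SD, n = 3). EFNA5 was above EPHA4 by 0.88 ± 0.47 and above EPHA3 by 0.63 ± 0.16, each in 3 of 3 libraries. EFNB3 was 2.23-fold above EPHB1. EFNB1 against EPHB2 and EPHB3, and EFNA5 against EPHA7, had no common direction over the 3 libraries.

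Slits, large secreted proteins, were above the robo genes of the table, which lacks ROBO2 and ROBO3. SLIT2 had 5.90, 8.17 and 8.91 FPKM and SLIT3 had 3.25, 3.93 and 3.33 FPKM, without overlap. ROBO1, a receptor of neuronal slit signalling, had 1.86, 1.38 and 2.30 FPKM. ROBO4, the robo of endothelial cells, had 2.02, 2.31 and 2.20 FPKM and held 54.1% of the summed robo level. The values of ROBO1 and ROBO4 overlapped. SLIT2 was above ROBO1 by 2.06 ± 0.46 on the log2 scale and SLIT3 by 0.95 ± 0.50, each in 3 of 3 libraries. The genes of the miR-218 hairpins lie inside SLIT2 and SLIT3 in the ARS-UCD2.0 assembly, and the table lists MIR218-1 at 7, 4 and 3 reads and MIR218-2 at 0, 0 and 1 read, at or near a floor of 3 reads in poly(A) RNA.

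The classical netrins were low. NTN1, the cue that guides ganglion cell axons into the optic nerve in mouse embryos, had 28, 12 and 23 reads, or 0.422, 0.170 and 0.258 FPKM. NTN4, a netrin of basement membranes, had 4.02, 4.16 and 4.16 FPKM, the smallest difference between libraries of any guidance gene of at least 1 FPKM, at 1.03-fold. NTN3 and NTN5 had means of 1.47 and 1.32 FPKM on 50 to 102 reads. NTN5 overlaps SEC1 in the ARS-UCD2.0 assembly and may hold reads of that gene, since no source used here says whether strand was used in counting.

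Of the netrin receptors the table held UNC5D and UNC5B. UNC5D, which also binds the FLRT adhesion proteins, had 2.54, 2.18 and 3.40 FPKM, and UNC5B, an UNC5 receptor of vessels as well as neurons, had 1.94, 2.36 and 2.53 FPKM. Their values overlapped. NTN1 was 8.55-fold below UNC5B and 10.1-fold below UNC5D, each in 3 of 3 libraries, while NTN4 was above UNC5B by 0.86 ± 0.17 on the log2 scale (SD, n = 3).

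Summed over the genes in the table, ligands were above receptors in each system and in 3 of 3 libraries. With the highest ligand left out, this held in none of the 4 systems. Slits summed to 11.2 FPKM ± 1.75 against 4.02 FPKM ± 0.423 for robos, a log2 ratio of 1.46 ± 0.24. Semaphorins summed to 72.9 FPKM ± 8.63 against 40.3 FPKM ± 3.26 for plexins and neuropilins, a log2 ratio of 0.85 ± 0.19. Ephrins summed to 41.6 FPKM ± 4.86 against 29.5 FPKM ± 3.01 for Eph receptors, a log2 ratio of 0.49 ± 0.28. Netrins summed to 7.19 FPKM ± 0.0510 against 4.98 FPKM ± 0.823 for UNC5B and UNC5D, a log2 ratio of 0.54 ± 0.22 (SD, n = 3 throughout).

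The exact two-sided sign-flip test over libraries gave p = 0.25 for each system, the smallest p that 3 libraries allow, so none could pass a threshold of 0.05. Without the highest ligand the log2 ratio was -0.38 ± 0.33 for ephrins and -0.68 ± 0.23 for netrins. It was -0.20 ± 0.27 for slits and 0.07 ± 0.11 for semaphorins, both with no common direction over the 3 libraries. Leaving out the highest ligand but no receptor lowers a summed ratio by construction, and for slits it set SLIT3 against ROBO1 and ROBO4. With the median member in place of the sum, on log2(FPKM + 1), the ratio was -0.54 for netrins, 0.14 for semaphorins, 0.47 for ephrins and 1.05 for slits. As the mean of log2(FPKM + 0.1) over members it was 0.02 ± 0.05 for semaphorins, 1.14 ± 0.25 for ephrins, 1.33 ± 0.25 for slits and -0.91 ± 0.24 for netrins. DCC, ROBO2, ROBO3, EPHA5, EPHA6, EPHA8 and 4 plexins are among the receptors not analysed here. The ratios therefore describe the listed genes and not the whole systems.

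**Figure D2:**
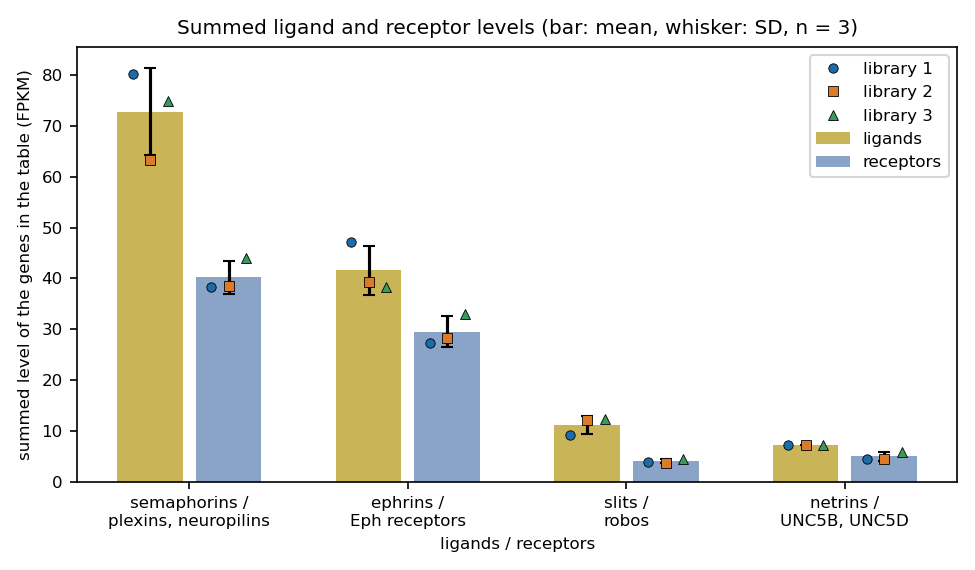
Summed FPKM of the ligands and of the receptors of each guidance system in the table, with bars for the mean, whiskers for the SD and points for libraries 1, 2 and 3. Netrin-G genes are left out. Ligand sums lie above receptor sums in each library, by a log2 ratio between 0.22 for ephrins in library 3 and 1.71 for slits in library 2.

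Ordered by mean, neighbouring guidance genes mostly overlapped. In 5 of the 46 steps of that order the values of the neighbours did not overlap over the 3 libraries. These were the steps from NTNG2 to SEMA4C, from SEMA4C to PLXNB2 and from SEMA7A to NTNG1 at the top, and from PLXNC1 to SEMA3C and from NTN1 to EPHA1 at the bottom. PLXNB2 and EFNA1, next in that order, overlapped, as did all steps between NTNG1 and PLXNC1. Of the overlapping steps, 5 kept their order within each of the 3 libraries, namely NTNG1 above SLIT2, SLIT2 above SEMA6A, SEMA6A above PLXNA2, UNC5D above EPHA4 and EPHA2 above EPHB4.

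Most guidance genes differed by less than 2-fold between the 3 libraries. For the 41 genes of at least 1 FPKM the median ratio of the highest to the lowest library was 1.43, against 1.33 for all genes of that level. In 36 of the 41 the 95% exact interval of that ratio excluded 1, a count not made for all genes. The highest and the lowest library were at least 2-fold apart for 3 of the 41 genes of at least 1 FPKM, or 7.32%, against 6.06% of all genes of that level, so the share is near the background and says nothing particular about guidance genes. At 1.5-fold the counts were 13 of 41, or 31.7%, against 27.8%. Without library 1, and likewise without library 3, the 2-fold count was 1. The 3 genes were EFNB1, described above, SEMA3B and PLXNA4. SEMA3B was 2.17 times higher in library 1 than in library 3 (95% exact interval 1.75 to 2.70) and PLXNA4 2.01 times higher in library 3 than in library 1 (1.82 to 2.23). These intervals cover counting error only and compare libraries, not conditions. Scaling to equal sums, which moves library 3 against library 1 by 0.14 on the log2 scale for every gene, gave 1.97 for SEMA3B and 2.22 for PLXNA4.

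Length of the gene model moved with the differences between libraries. Of the 26 guidance genes of at least 3000 bases and 1 FPKM, 16 were lowest in library 1, against 42.8% of all genes of that length, and 1 was lowest in library 3, against 12.4%. Their median log2 ratio of library 3 to library 1 was 0.35, against 0.14 for all genes of that length. Of the 15 shorter guidance genes, 2 were lowest in library 1, against 18.7% of all shorter genes, and their median log2 ratio was -0.23 against -0.19. Long members such as SLIT2, SEMA6D, PLXNA2 and PLXNA4 were lowest in library 1 and highest in library 3. When the median deviation of genes of like length was removed, the ratio of the highest to the lowest library became 1.61 for PLXNA4, 1.39 for PLXNA2, 1.37 for SEMA6D, 1.35 for SLIT2, 2.07 for SEMA3B and 2.48 for EFNB1.

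As deposited, most ephrins were highest in library 1 and most Eph receptors in library 3. Of the 7 ephrins 6 were highest in library 1, against 45.3% of all genes of at least 1 FPKM, and 0 in library 3. Of the 9 Eph receptors of at least 1 FPKM, 5 were highest in library 3, against 25.7% of all such genes, and 2 in library 1. The log2 ratio of summed ephrins to Eph receptors was 0.79, 0.47 and 0.22 in libraries 1, 2 and 3. The ephrin models are shorter, with a median of 1993 bases against 3348 for these receptors. Shares also differ by length. Of all genes of at least 1 FPKM and 3000 bases, 1285 of 2330 were highest in library 3. Among shorter genes, 3690 of 7269 were highest in library 1 and 1184 in library 3. Not all of the receptors are long. EPHA4, highest in library 3, and EPHB6, highest in library 2, have models of 1826 and 1820 bases. The part of length in the receptor count was not tested. With the length trend removed the ratio was 0.79, 0.46 and 0.35, 4 of 7 ephrins were highest in library 1, 2 in library 2 and 1 in library 3, and 5 of 9 receptors were highest in library 3, 3 in library 1 and 1 in library 2.

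Library 1 also held more of the pigment epithelium markers, with summed levels of 14.6, 8.31 and 5.18 FPKM in libraries 1, 2 and 3 for the 5 markers, 4 of which averaged 1 FPKM or more, while TYR, the key enzyme of melanin synthesis, had a mean of 0.00331 FPKM. SEMA4C and SEMA3B were highest in library 1 too. They were among 13 of the 41 guidance genes of at least 1 FPKM that were highest there, against 45.3% of all genes of that level. The part of pigment epithelium in these differences was not tested. All 7 endothelial and pericyte markers averaged 1 FPKM or more, from CLDN5 at 41.0 FPKM to CDH5 at 1.73 FPKM, and summed to 77.1, 76.5 and 68.6 FPKM.

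**Figure D3:**
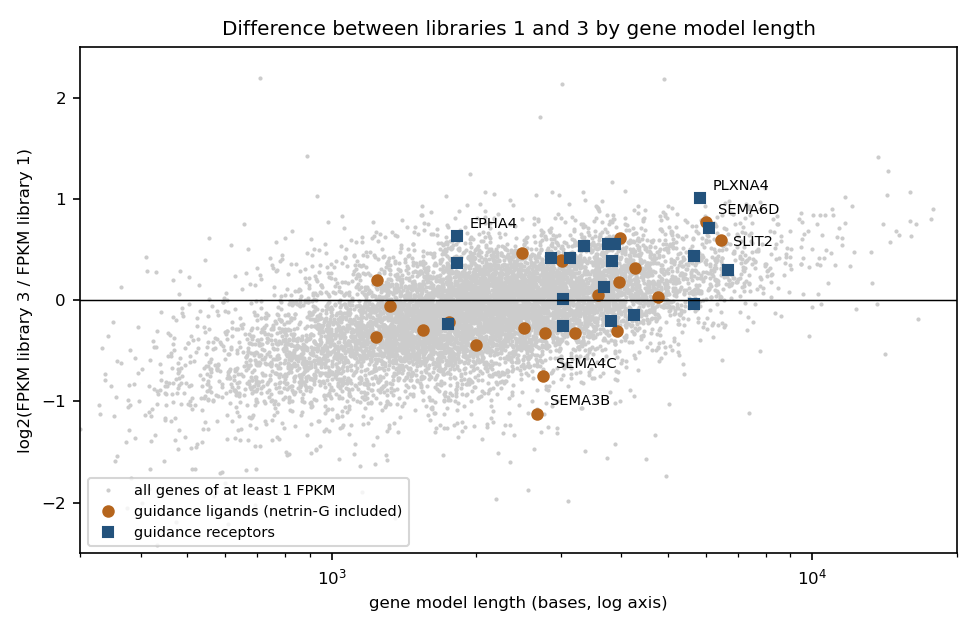
Log2 ratio of FPKM in library 3 to FPKM in library 1 against gene model length on a log axis, for all genes of at least 1 FPKM in grey and for 41 guidance genes as ligands and receptors; grey points beyond the axes are not drawn. Long models lie above 0 more often than short ones, and PLXNA4, SEMA6D and SLIT2 lie with the long models while SEMA3B and SEMA4C lie below 0.

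Genes that act with or downstream of these receptors were listed in 3 groups. Of the 66 intracellular effectors listed, which carry the signal to actin and microtubules, 50 were in the table. All 50 had 1 FPKM or more, against 70.7% of all genes. At 10 FPKM or more there were 29 effectors, or 58.0%, against 38.4% of all genes. Their median was 10.6 FPKM, above that of the guidance genes themselves. CFL1, the actin-severing protein cofilin, had 338, 343 and 275 FPKM. DPYSL2, a mediator of semaphorin 3A responses also known as CRMP2, had 84.1, 95.0 and 129 FPKM, and its relative CRMP1 had 78.1, 106 and 106 FPKM. The GTPases RAC1 and RHOA had means of 69.1 and 58.0 FPKM.

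Of the proteases and modifiers of guidance signals, 22 of 24 reached 1 FPKM and 16, or 66.7%, reached 10 FPKM, with a median of 16.7 FPKM. Over all genes the shares were 70.7% and 38.4%. The highest were MAGED1, an adaptor of the MAGE family, with 45.7, 59.6 and 56.1 FPKM, ACP1, a small tyrosine phosphatase that acts on Eph receptors, with 47.5, 56.2 and 38.9 FPKM, and NDST1, an enzyme of heparan sulfate synthesis, with 41.5, 30.4 and 48.3 FPKM. ADAM10, the protease that cleaves ephrins and other guidance proteins, had 5.19, 4.92 and 6.98 FPKM.

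Of the other guidance ligands and coreceptors, 17 of 18, or 94.4%, had 1 FPKM or more, against 70.7% of all genes, and 4, or 22.2%, had 10 FPKM or more, against 38.4%. Their median was 5.25 FPKM. RTN4, which encodes the neurite growth inhibitor Nogo, had 180, 183 and 182 FPKM and was, by its mean, the only gene of the list above NTNG2. L1CAM, an axonal adhesion protein and coreceptor for neuropilin, had 77.1, 88.2 and 89.0 FPKM, and SPON1, a secreted guidance protein, had 23.4, 21.2 and 24.4 FPKM. MAG, a myelin inhibitor of axon growth, had 0, 1 and 0 reads. Of the names on the 3 lists 44 were not analysed here, NEO1, DSCAM and ROCK1 among them.

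**Figure D4:**
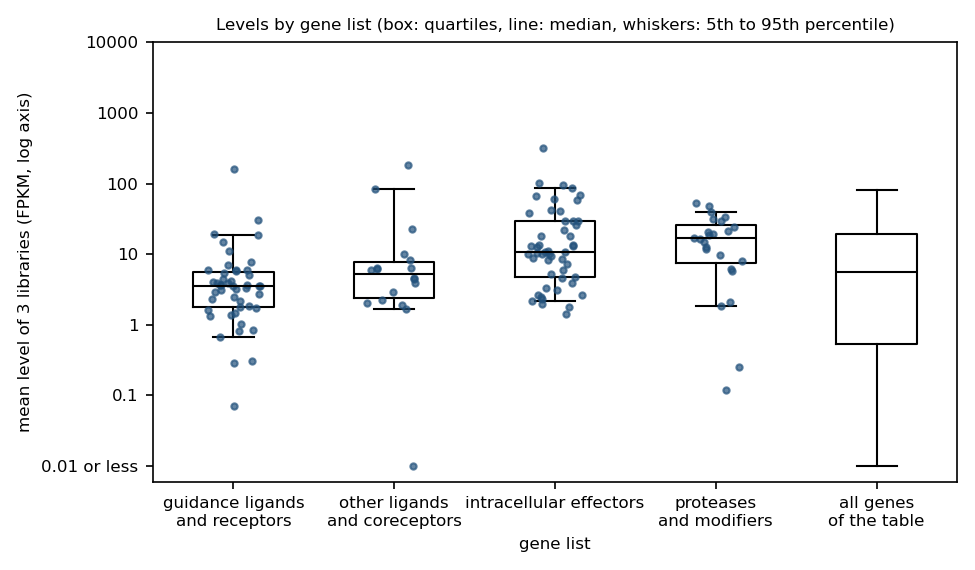
Mean FPKM of the guidance ligands and receptors, of the 3 lists of other pathway genes and of all genes of the table, on a log axis, with a point for each gene of a list, boxes for quartiles and whiskers from the 5th to the 95th percentile. Means below 0.01 FPKM are drawn at 0.01. The median is 3.57 FPKM for guidance ligands and receptors, 10.6 for intracellular effectors and 5.67 for all genes.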

How the data were processed

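Poly(A) RNA of bovine retina was measured in 3 libraries, treated as 1 group. Per the file headers the authors deposited FPKM values and a gene length for 13574 symbols. CASAVA 1.8.1, GSNAP and HTSeq are the tools in the submitters' processing notes. Their settings and treatment of strand and of multiply matching reads, and the build and annotation, were not given in the sources used here. No per-sample column was left out.

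FPKM times length gave whole reads within a tolerance of 0.1 for 100% of values of up to 2000 reads, which yielded the read denominators, with 57.6% to 61.0% of reads on listed genes. Reads were used for counts, a floor of 3 reads (0.0611 to 0.0818 FPKM for a 1 kb model) and 95% exact intervals of ratios. With 1 group there was no contrast for a count model. Over 10362 genes of at least 20 reads the libraries differed by more than sampling noise (chi-square per degree of freedom 54.1 to 93.9).

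Levels are means ± SD over libraries. Summed ligands and receptors were compared within libraries by exact sign-flip tests. Overlaps with other genes came from the ARS-UCD2.0 gene table, in which 48 of 48 symbols matched. All guidance genes could be named, and the 3 highest of each other list. CDH5, TYR, XIST, RAC1, RHOA, ADAM10, MAG and LRRC4 were named after their values were seen. Members and lists were chosen with earlier results of these data known. The recovery of reads and the fold calls were tested on simulated data. Alternatives covered scaling, thresholds, pseudocounts (1 and 0.1), members and left-out libraries, and Python 3.11.15, pandas 2.3.3 and scipy 1.17.1 were used.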

Additional observations from a re-analysis of the deposited data

How the results depend on the processing

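Of 42 alternative values of counts, medians and shares, 34 moved by less than the SD between libraries or stayed within 1.5 times the count. Of 36 alternative ligand to receptor ratios 30 kept their sign, but 12 of these moved by over 1 SD. Semaphorins went from 0.85 to 0.14 with the median member, 0.09 and 0.02 with the means of log2(FPKM + 1) and log2(FPKM + 0.1), 0.07 without the highest ligand and 1.82 without the highest receptor. Without the highest receptor slits went from 1.46 to 2.61, netrins from 0.54 to 1.67 and ephrins from 0.49 to 0.82, and ephrins were at 1.14 with the mean of log2(FPKM + 0.1). The number of guidance genes of at least 1 FPKM stayed between 33 and 44. The number of genes with libraries at least 2-fold apart, 3, was 13 at 1.5-fold, 5 with no minimum level, 1 on FPKM + 1 and 0 among genes of at least 5 FPKM, and 1 to 2 when each library was left out (1 without library 1 or 3). Removing the length trend, chosen after seeing the data, left 2. The median level of 3.57 FPKM was 3.22 FPKM as the mean of log2(FPKM + 0.1), converted back. The share of summed FPKM was 0.0693% without NTNG2, an alternative also chosen after seeing the data. Log2 ratios of ligands to receptors turned to -0.38 for ephrins, -0.20 for slits and -0.68 for netrins without the highest ligand. For netrins they turned to -0.54 with the median member, -0.49 with the mean of log2(FPKM + 1) and -0.91 with the mean of log2(FPKM + 0.1), and the cause was not tested. No paired analysis was possible because 1 group has no other group whose libraries could be matched to it by replicate number; ligands and receptors were compared within libraries. EPHA1 and NTN1, with 8 to 28 reads a library, are limited by depth.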
